A study of Mus musculus with 8 samples.

Results

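The 38 genes described here serve the neuromuscular junction (NMJ), the synapse at which a motor neuron drives a muscle fiber, or the neurotrophic signals that muscle, nerve and Schwann cells exchange. They were taken by name, and 2 rules tied them to regions of chromatin. By the first, a region belonged to a gene when the annotated transcription start closest to the centre of the region, among all protein-coding genes, was one of that gene's. By the second, a region belonged to every gene with a start within 100 kb of its centre. The first rule gave 54 regions and the second gave 63, and 78 of the 11179 regions placed on chromosomes were found by either rule. All 38 genes were found in the annotation, among 21938 protein-coding genes.

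The study mapped H3K27ac, an acetyl mark on histone H3 carried by active promoters and enhancers, in primary mouse myotubes by CUT&RUN, in which an antibody directs a nuclease to marked chromatin and the released DNA is sequenced. Its 8 libraries comprised 4 groups of 2, H3K27ac and control IgG in Nrip1KO and in Ctrl myotubes, and Nrip1 encodes RIP140, a coregulator of nuclear receptors. Per the methods, mice with loxP sites around the coding part of Nrip1 on the C57BL/6J strain were crossed to mice with Cre under the MCK or the myogenin promoter, both active in muscle, and littermates without Cre served as controls. The labels do not say which Cre line gave the myotubes. The study's abstract and introduction place them in the striated muscle KO, which it made with the MCK promoter. Satellite cells, the muscle stem cells, were grown from gastrocnemius muscle and differentiated for 4 days, and nuclei were pooled before they were divided between the antibodies. The labels name no motor neurons or Schwann cells in the cultures. The data analysed were 2 lists of regions whose H3K27ac signal differed by 2-fold or more, 1 list for signal increased and 1 for signal decreased in the KO. These lists hold positions and a direction only. The size of a change, its spread between replicates, the IgG level and the sequencing depth are therefore unknown, no test between groups was possible, and all counts below are descriptions.

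At the NMJ, agrin released by the nerve binds LRP4 on the muscle fiber and activates the kinase MuSK, and with DOK7 and rapsyn this gathers acetylcholine receptors under the nerve terminal. Neuregulins acting on ErbB receptors, and ETS transcription factors that recognize a short element called the N-box, are known for raising transcription of receptor subunit genes in the nuclei beneath the synapse. Utrophin and its partners anchor the receptors to the cytoskeleton, and brain-derived neurotrophic factor, neurotrophin-3 and their receptors signal between muscle and nerve.

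Of the 54 regions nearest to one of these genes, H3K27ac was increased in 19 and decreased in 35 in the KO. The increased share of 35.2% (exact 95% binomial interval 22.7 to 49.4, counting error over regions only) lay beside 35% over all regions. It lay beside 30.8% when the increased share of each region's chromosome was averaged over the 54 regions. The genes differed from one another. By the nearest rule, 3 of 5 agrin-pathway genes and 1 of 5 muscle acetylcholine receptor subunits held decreased regions alone, and the rest of these held none. Over all protein-coding genes, 17.8% had a decreased nearest region, alone or beside an increased one. Both acetylcholinesterase genes, neurotrophin-3 and Etv5 also held decreased regions alone. In contrast, most nearest regions of utrophin, α-dystrobrevin, Erbb4, Ncam1 and Epha4 were increased.

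Of the 38 genes, 3 had a differential region centred within 1 kb of one of their starts, and the share of all genes with such a region was not counted. In the whole lists, 15.2% of increased and 11.2% of decreased regions were centred within 1 kb of a start of any annotated gene. The sequence of each of the 3 regions is shown because they lie where a promoter would. The first belongs to Chrne, the ε subunit of the adult muscle acetylcholine receptor, and covers chr11:70618947-70619737 in the GRCm38 (mm10) assembly. It is 791 bp wide, decreased, and centred 126 bp upstream of the gene's start on the minus strand. The stretch shown runs from -275 to -1 bp relative to that start, in the direction of the gene. Capitals mark the N-box (CCGGAA, first base at -54) and the myogenic E-box (CAGCTG, first base at -116, the kind of site that MyoD and myogenin bind). The second is an increased region of Bdnf, chr2:109708281-109709056, 776 bp wide and centred 715 bp upstream of an internal start of the gene on the plus strand. None of the 5 motifs searched was found in it, and its central 300 bases are shown. The third lies 451 bp upstream of Gabpa, which encodes the DNA-binding subunit of the ETS factor GABP, at chr16:84834098-84834850. It is a decreased region of 753 bp, its centre is closer to a start of the neighbouring gene Atp5j (235 bp), and its central 300 bases, read along Gabpa, held no motif.
Chrne, decreased: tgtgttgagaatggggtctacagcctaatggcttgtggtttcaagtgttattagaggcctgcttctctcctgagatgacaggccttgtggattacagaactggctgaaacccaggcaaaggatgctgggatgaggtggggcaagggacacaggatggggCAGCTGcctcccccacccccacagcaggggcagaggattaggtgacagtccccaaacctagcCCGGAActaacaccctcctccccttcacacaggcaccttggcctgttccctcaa
Bdnf, increased: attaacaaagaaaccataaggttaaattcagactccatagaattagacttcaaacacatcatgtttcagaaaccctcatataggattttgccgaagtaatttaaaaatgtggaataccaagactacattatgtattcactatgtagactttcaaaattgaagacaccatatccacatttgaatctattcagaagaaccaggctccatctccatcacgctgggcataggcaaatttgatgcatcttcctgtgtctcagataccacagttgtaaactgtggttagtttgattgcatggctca
Gabpa, decreased: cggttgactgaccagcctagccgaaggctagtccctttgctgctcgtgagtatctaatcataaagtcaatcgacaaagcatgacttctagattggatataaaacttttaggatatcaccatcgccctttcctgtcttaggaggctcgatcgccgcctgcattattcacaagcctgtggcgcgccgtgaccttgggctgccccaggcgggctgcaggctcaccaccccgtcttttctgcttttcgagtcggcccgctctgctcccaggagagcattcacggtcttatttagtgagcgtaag

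RefSeq gives 36 promoter windows, each from 250 bases before to 50 after a start, for 25 of the 38 genes. Only the Chrne window shared bases with a differential region (1 of 36, 2.78%), beside 635 of 32851 windows of all genes (1.93%). The Bdnf region ended 76 bases before one of the 7 Bdnf windows, and the Gabpa region ended 23 bases before the Gabpa window. An N-box was found in 4 of the 36 windows (11.1%, beside 14.9% of all RefSeq promoter windows), those of Chrne, Ngfr, Erbb4 and Gabpa, and the Gabpa match lay outside its differential region. A CAGCTG E-box was found in 8 of the 36 (22.2%, beside 16.3%), and the windows of Chrne and Ngfr held both motifs.

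**Figure D1:**
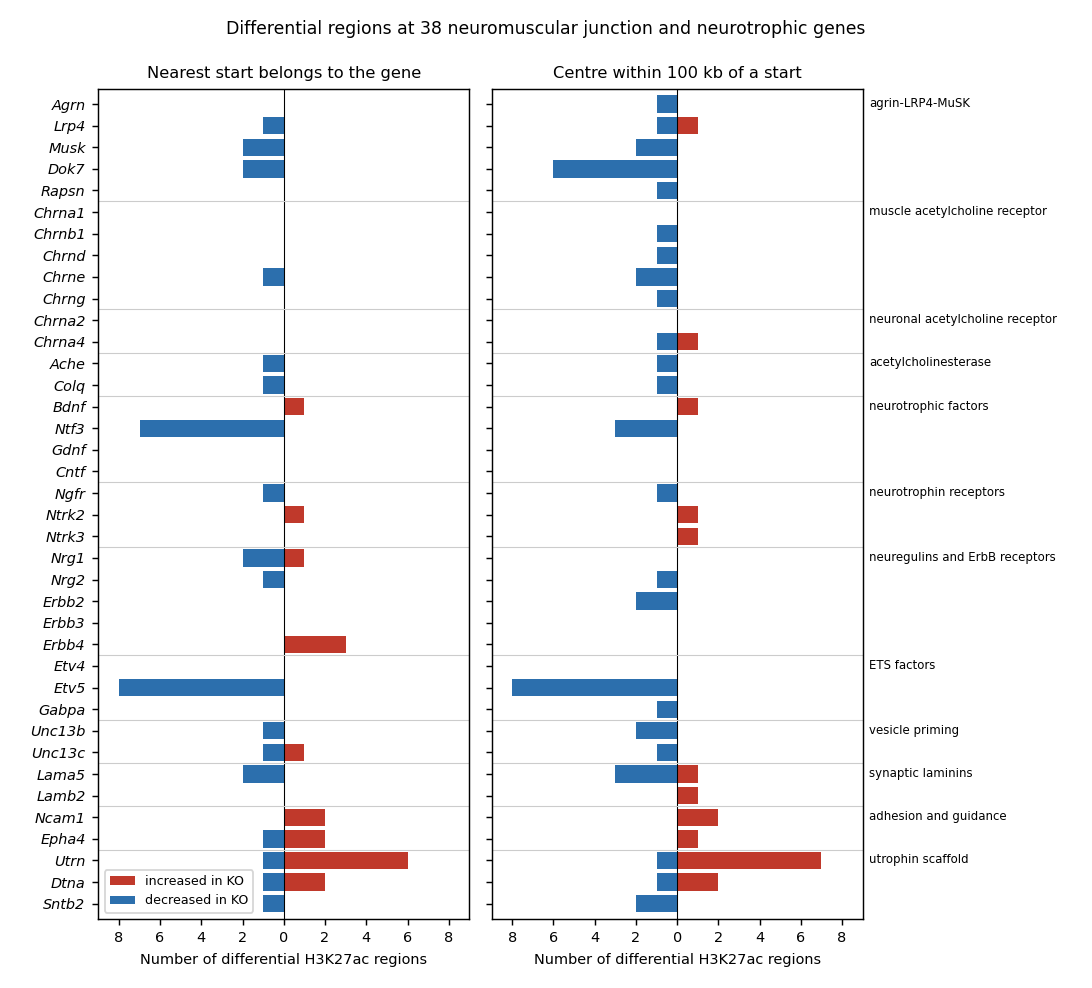
Number of differential H3K27ac regions at each of the 38 genes, grouped by role. Bars to the right count regions increased and bars to the left regions decreased in Nrip1 KO myotubes, by the nearest start (left panel, 54 regions) and within 100 kb of a start (right panel, 63 regions and 1 counted at both Chrnd and Chrng). Etv5 (8) and Ntf3 (7) have the most decreased and Utrn (6) the most increased nearest regions.

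By the nearest rule, 22 of the 38 genes had a region (57.9%, beside 25.4% of protein-coding genes). An increased region was nearest to 9 genes (23.7%, beside 10.6% of protein-coding genes) and a decreased region to 18 (47.4%, beside 17.8%). These genes cover more ground than most. The stretch of chromosome closest to a gene's starts had a median of 68.6 kb in the 38 genes and 45.0 kb in all protein-coding genes, and per Mb of such stretch the 38 genes had 4.58 regions against 4.10 over the genome. Per Mb, increased regions numbered 1.61 beside 1.44 and decreased regions 2.97 beside 2.66, so the density of regions was close to that of the genome in both directions. Within 100 kb of a start, 11 genes had an increased region (28.9%, beside 24.1% of protein-coding genes) and 24 a decreased one (63.2%, beside 42.7%). Of the 63 regions in these windows, 19 were increased and 44 decreased (30.2% increased, exact 95% binomial interval 19.2 to 43.0), and 24 of them were nearest to some other gene.

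No region was found by either rule at 6 genes. Chrna1, the α subunit shared by fetal and adult muscle receptors, was 120540 bp from its closest region. Etv4, an ETS factor, and Erbb3, a neuregulin receptor, were 145171 and 178876 bp from theirs. Chrna2, a neuronal receptor subunit, Cntf, which encodes ciliary neurotrophic factor, and Gdnf, a survival factor for motor neurons, lay 234020, 268616 and 511062 bp away. A further 10 genes had regions within 100 kb but none nearest to them, so that their windows were filled by regions of a neighbour.

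The agrin, LRP4 and MuSK pathway came first. Its 5 genes had 5 nearest regions, all decreased, at 3 genes, and within 100 kb they had 11 decreased and 1 increased. Musk, the kinase at the centre of the pathway, held 2 decreased regions in its introns, chr4:58311834-58312623 (790 bp, 26053 bp from the closest start) and chr4:58336170-58336838 (669 bp, 50329 bp). Neither contained a match to any of the 5 motifs. No increased region lay closer to Musk than 2022221 bp, and all 20 other regions within 1 Mb of it were decreased. Chromosome 4 as a whole was weighted the same way, with 7.54% of its other regions increased. Dok7, the adaptor that activates MuSK from inside the cell, held 2 decreased intronic regions of 844 and 4930 bp, the latter the widest of the 54. Its window held 4 further decreased regions nearest to Rgs12, Hgfac or Lrpap1. Lrp4, the agrin receptor, had 1 decreased region of 501 bp centred in a coding exon, 2297 bp from a start, and 1 increased region 17.9 kb upstream that was nearest to another gene. Agrn itself and Rapsn, which encodes rapsyn, had no nearest region. The single decreased region in the window of Agrn sat 107 bp from a start of Plekhn1, and that in the window of Rapsn 754 bp from a start of Psmc3.

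Among the 5 muscle receptor subunits, Chrne alone had a nearest region, the decreased one at its start. A second decreased region in its window, 51.4 kb downstream, lay in an intron of Mink1. Chrnb1, the β subunit, had 1 decreased region within 100 kb, in an intron of Zbtb4. Chrnd and Chrng, the δ subunit and the fetal γ subunit, are neighbours and shared 1 decreased region, chr1:87222234-87222734, in an intron of Eif4e2. This was the only region within 100 kb of 2 of the 38 genes. Of the neuronal subunits, Chrna4 had 1 increased and 1 decreased region in its window, both closest to starts of Arfgap1, the decreased one at 90 bp and the increased one at 1155 bp. Ache encodes acetylcholinesterase, which ends transmission, and Colq the collagen tail that anchors it in the synaptic cleft. Each had 1 decreased nearest region, 9440 bp upstream of Ache and 3295 bp from an internal start of Colq, and no increased region within 100 kb.

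Neurotrophic factors went in opposite directions. Bdnf had the increased region printed above and no other within 100 kb, and its closest decreased region was 660995 bp away. Ntf3, which encodes neurotrophin-3, was nearest to 7 decreased regions, chr6:126001964-126002464, chr6:126032407-126036597, chr6:126038741-126039512, chr6:126095673-126096309, chr6:126217873-126219128, chr6:126239531-126240031 and chr6:126325229-126325983. They began 51590 bp from its start and reached 162746 bp, on both sides of the gene, and the first 3 lay in introns of Ano2. Only 3 of the 7 were within 100 kb, and no increased region was closer than 759458 bp. The receptors were mixed. Ntrk2, which encodes the BDNF receptor TrkB, had 1 increased intronic region, 99913 bp from a start. Ngfr, which encodes the p75 neurotrophin receptor, had 1 decreased region just past its 3′ end, 19340 bp from its start. Ntrk3, which encodes the neurotrophin-3 receptor TrkC, had none nearest to it, and the increased region in its window sat 77 bp from a start of Mrps11 on chromosome 7, where 97.7% of regions were increased.

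The neuregulins and ErbB receptors had 4 increased and 3 decreased nearest regions. All 3 regions nearest to Erbb4 were increased and lay upstream of it, chr1:69228230-69228730, chr1:69276465-69278589 and chr1:69285677-69286832, at 120421, 169468 and 178195 bp from its start. The closest decreased region to Erbb4 was 1700415 bp away. When non-coding genes were allowed to compete, none of the 3 stayed nearest to Erbb4, and Nrg1, Epha4, Unc13c and Sntb2 also lost all of theirs. Nrg1, a long gene of 1069 kb that encodes neuregulin-1, held all 3 of its regions within introns and more than 100 kb from any start. Those at chr8:32117675-32118304 and chr8:32155522-32156451 were decreased and that at chr8:32285605-32287090 was increased. Nrg2 had 1 decreased region 41316 bp upstream. Erbb2 had 2 decreased regions in its window, both in introns of Stard3, and none nearest.

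Among the ETS factors, Etv5, also called ERM, was nearest to 8 regions, all decreased and the most of any of the 38 genes. They lay at chr16:22399816-22401433, chr16:22471574-22472351, chr16:22477140-22478417, chr16:22488969-22491657, chr16:22495607-22496262, chr16:22503677-22505128, chr16:22509115-22509746 and chr16:22517743-22518243. The first was in an intron of Etv5, 1205 bp from an internal start. The other 7 stood 32243 to 78274 bp upstream, spanned 46.7 kb and covered 7986 bp, all inside introns of Dgkg, which encodes a diacylglycerol kinase. Whether they act on Etv5 or on Dgkg cannot be told from positions. When the gene that contains a region took precedence over the nearest start, 1 of the 8 stayed with Etv5. In a separate setting, where the nearest start of any gene counted, non-coding genes included, 2 stayed. All 40 other regions within 1 Mb of Etv5 were decreased, on a chromosome where 7.88% of the other regions were increased.

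The vesicle priming genes Unc13b and Unc13c encode Munc13 proteins, which ready synaptic vesicles for release. Unc13c had 1 increased region in an intron, chr9:73683571-73684363, 249600 bp from the closest start, and 1 decreased region upstream, chr9:74023583-74026621, at 56136 bp. The decreased region was the wider, 3039 bp against 793 bp, and their centres were 341 kb apart. Unc13b had 1 decreased intronic region, 1769 bp from a start. Lama5, which encodes the α5 chain of synaptic laminins, held 2 decreased intronic regions of 3377 and 1946 bp, and its window also held 1 increased and 1 decreased region of neighbours. Lamb2, the β2 chain concentrated in the synaptic cleft, had 1 increased region in its window, 91.4 kb away and close to a start of Usp4.

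Among adhesion and guidance genes, both regions nearest to Ncam1, the neural cell adhesion molecule, were increased and intronic, 6381 and 85403 bp from its starts. This differed from its surroundings, where 1 of 9 other regions within 1 Mb was increased. Epha4, an ephrin receptor, had increased regions at chr1:77536869-77537369, 22031 bp upstream, and at chr1:76880059-76880684, 497236 bp away. Its decreased region at chr1:76629750-76631155 was 747155 bp away. No start of another protein-coding gene was closer to these distant regions.

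The utrophin scaffold held 8 of the 19 increased regions. Utrn, whose product links the synaptic cytoskeleton to the membrane, was nearest to 6 increased and 1 decreased region. Upstream of the gene, chr10:12876104-12876604, chr10:12878630-12879549 and chr10:12886182-12889210 were increased at 6989, 9724 and 18331 bp from its start, and 3 further increased regions between 54.1 and 66.5 kb were nearest to Stx11. The decreased region, chr10:12863633-12864655, lay in an intron 5221 bp inside the gene, only 12.2 kb from the closest increased one. Of the other 3 increased regions, chr10:12423763-12424393 was intronic near the 3′ end, and chr10:11945140-11945640 and chr10:11881865-11882365 lay 457685 and 520960 bp from any Utrn start. Other regions within 1 Mb of Utrn were 13 increased and 1 decreased, and 68.9% of the other regions of chromosome 10 were increased. Dtna, which encodes α-dystrobrevin, had increased regions 69983 bp upstream and 21120 bp inside the gene and a decreased one 37074 bp inside. The inner pair were 15954 bp apart with opposite directions. Sntb2, which encodes β2-syntrophin, had 1 decreased region 6248 bp upstream.

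**Figure D2:**
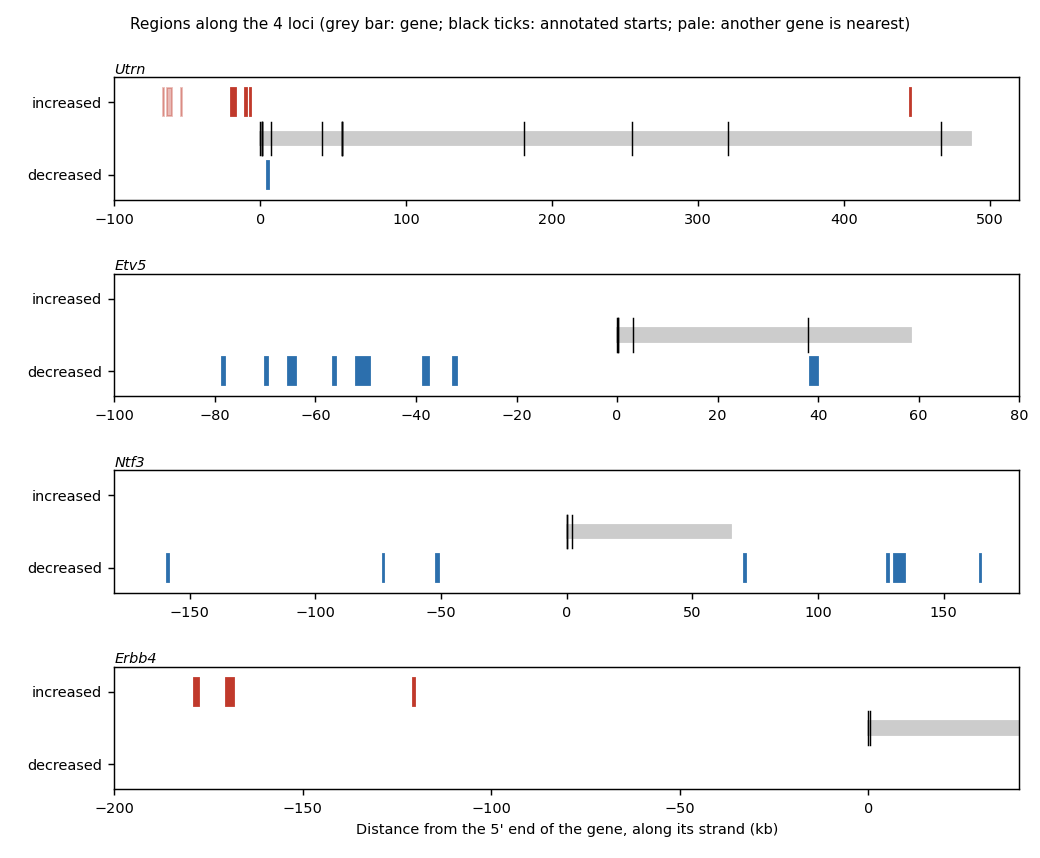
Differential regions along Utrn, Etv5, Ntf3 and Erbb4, with distance in kb from the 5′ end of each gene along its strand. The panels are cut, so Erbb4 is drawn in part. The increased regions 457.7 and 521 kb from any Utrn start are not drawn. Red blocks above the gene are increased and blue blocks below it decreased in KO myotubes, pale blocks have another gene as nearest, the grey bar is the gene and black ticks are its annotated starts. Increased regions stand 6989 to 18331 bp upstream of Utrn and a decreased one 5221 bp inside it, while 7 decreased regions stand 32243 to 78274 bp upstream of Etv5.

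**Figure D3:**
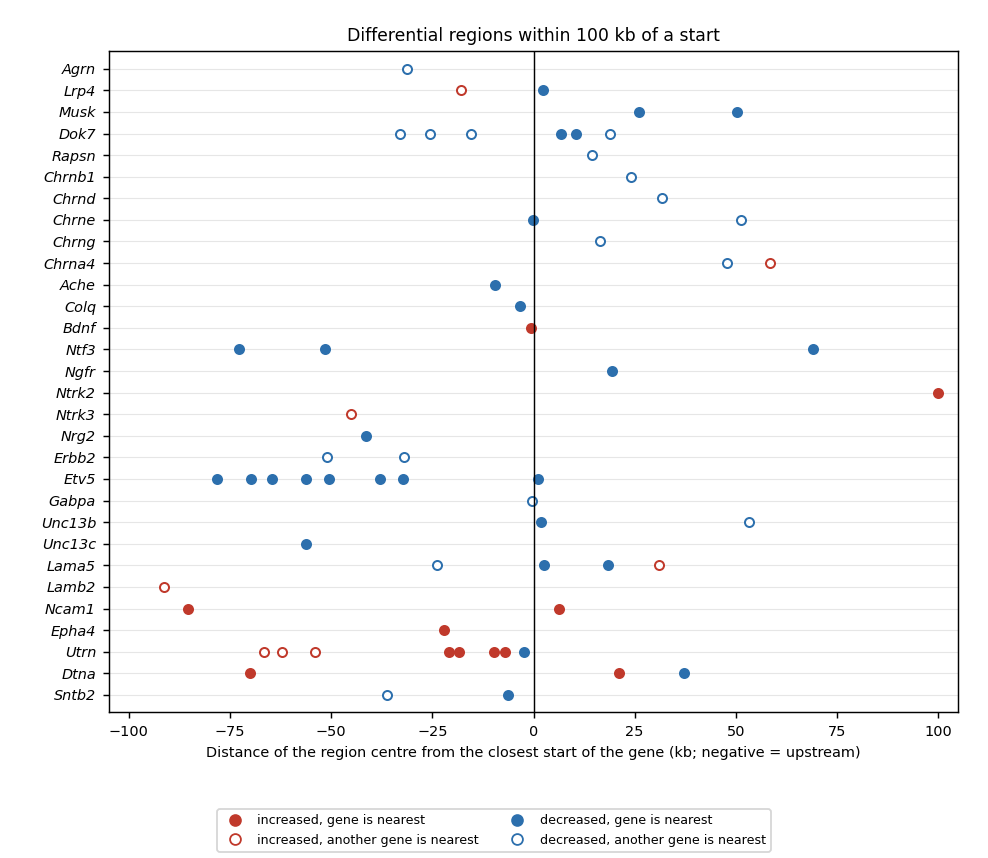
Position of every differential region within 100 kb of a start of 30 genes, in kb from the closest start of the gene (negative is upstream). Red circles are increased and blue circles decreased in KO myotubes, filled where the gene is the nearest protein-coding gene and open where another gene is nearer. Regions within 1 kb of a start are seen for Chrne, Bdnf and Gabpa only.

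A few loci carried much of the count. Etv5 and Ntf3 together gave 15 of the 35 decreased nearest regions (42.9%), and Utrn and Erbb4 gave 9 of the 19 increased ones (47.4%). Without Etv5 and Ntf3 the increased share was 48.7% (exact 95% binomial interval 32.4 to 65.2), and without Utrn it was 27.7% (15.6 to 42.6). Of 12 genes with 2 or more nearest regions, 7 had all of them in 1 direction, beside 71.3% of the 2341 protein-coding genes with as many.

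The direction at each gene was set beside that of its surroundings. For the 13 genes with decreased nearest regions alone, the increased share of the other regions within 1 Mb ran from 0 to 25%, with a median of 10%. The 9 genes with an increased nearest region had other regions within 1 Mb that were 11.1 to 100% increased, with a median of 66.7%, and Ncam1 was the 1 gene of these below 25%. Some of these shares rest on few regions, 1 at Erbb4, 2 at Epha4 and 3 at Nrg1, and Nrg1 had 2 decreased regions of its own although 2 of its 3 neighbours were increased. The 16 genes without a nearest region had shares from 0 to 100% with a median of 25%. Chromosome totals differed as well. Chromosome Y aside, which held 1 region, chromosomes 4, 7, 10 and 16 had the shares that stood furthest apart in the whole lists (7.53, 97.7, 69.1 and 7.80% increased). On them, 6 nearest regions of the 38 genes were increased and 12 decreased, or 33.3% increased beside 46.2% of all regions there. Chromosome 7, with 973 of 996 regions increased, entered the 46.2% but held 0 nearest regions of these genes. Their nearest regions were 6 increased and 1 decreased on chromosome 10, and 3 on chromosome 4 and 8 on chromosome 16, all decreased. Away from chromosomes 4, 7, 10 and 16, 30 genes had 13 increased and 23 decreased nearest regions, or 36.1% increased beside 30.2% of all regions there. A difference between chromosomes in DNA copy number, or in yield of the reaction, was not measured, and its part in these directions was not tested.

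**Figure D4:**
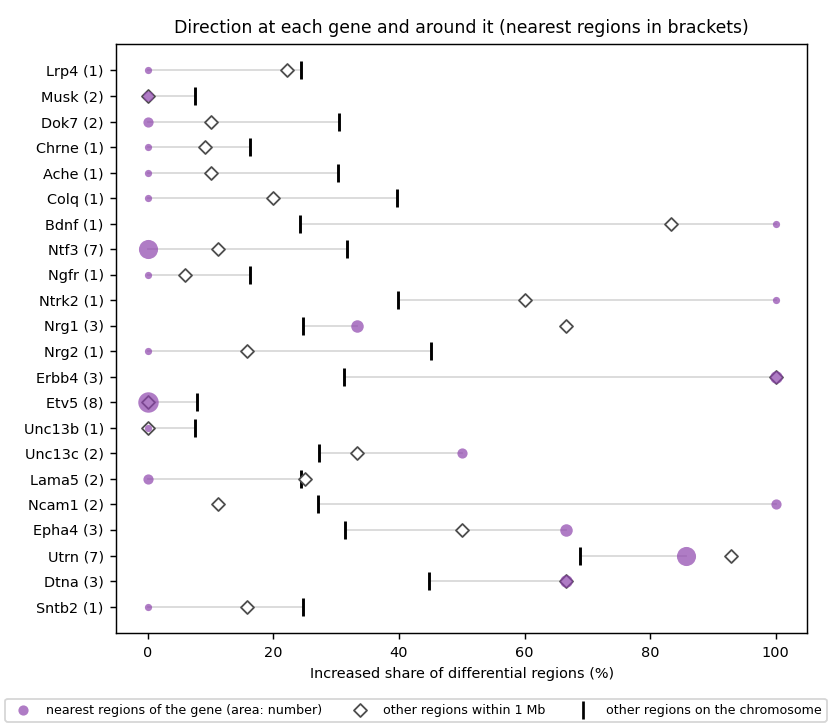
Increased share, in percent, of the nearest regions of each of 22 genes (purple circles, area by number of regions, number in brackets), of the other regions within 1 Mb (diamonds) and of the other regions on the chromosome (bars). Genes whose nearest regions were all decreased have diamonds at or below 25%, and 8 of the 9 genes with an increased region have them above it.

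The regions of these genes lay far from starts. Increased ones had a median distance of 85.4 kb (25.1 kb over all increased regions) and decreased ones 41.3 kb (17.1 kb over all). Of the 19 increased, 11 were intergenic, 7 intronic and 1 promoter-proximal, which made 57.9% intergenic beside 35.9% of all increased regions. Of the 35 decreased, 25 were intronic (71.4%, beside 51.7%), 8 intergenic, 1 promoter-proximal and 1 in a coding exon. The promoter-proximal share was 5.26% of the increased and 2.86% of the decreased, beside 15.2 and 11.2% in the whole lists. Introns of any gene counted here. The 7 decreased regions upstream of Etv5 lay in introns of Dgkg, and others nearest to Ntf3 or Ache lay in introns of Ano2, Gm10415 or Gm42456. Median widths were 759 bp for increased and 791 bp for decreased regions, against 777 and 863.5 bp in the whole lists. GC content averaged 41.7% ± 3.97 (SD, n = 19 regions) in increased and 48.4% ± 5.33 (SD, n = 35 regions) in decreased regions. The whole lists had the same order, with 43.5% ± 5.56 (SD, n = 3917) and 48.0% ± 5.28 (SD, n = 7262).

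**Figure D5:**
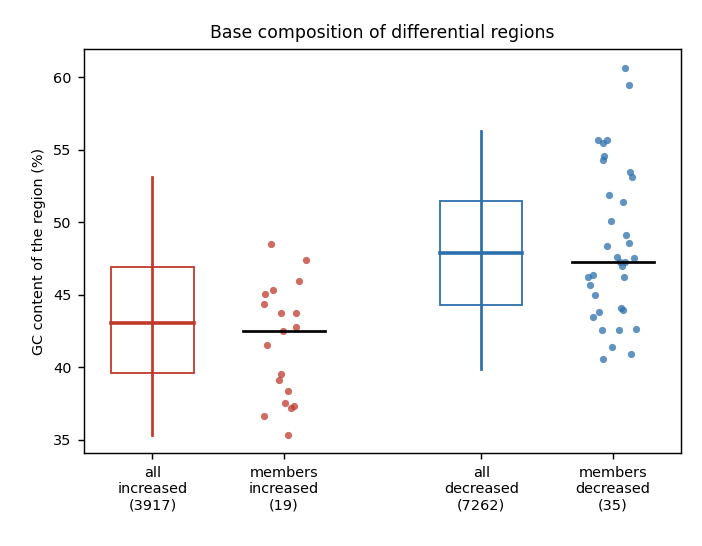
GC content, in percent, of differential regions by direction. Boxes give the quartiles and median of all regions, with lines to their 5th and 95th percentiles, circles are the regions nearest to the 38 genes and black bars their medians (42.5% for 19 increased, 47.3% for 35 decreased). Increased regions of the genes lie lower than decreased ones, as in the whole lists.

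Motifs were counted on both strands in the central 500 bp of each region. The E-box CAGCTG was present in 15 of 54 regions (27.8%, beside 34.7% of all regions). By direction it was in 1 of 19 increased and 14 of 35 decreased regions, or 5.26 and 40%, beside 28.8 and 37.9% in the whole lists. The single increased region that had it was that of Ntrk2, and 4 of the 14 decreased ones were upstream of Etv5. The N-box CCGGAA was in 3 of 54 (5.56%, beside 5.70%), all decreased, at Chrne, Lrp4 and Ntf3, and over whole regions Dok7 was the fourth. For AP-1, the element recognized by Fos and Jun proteins, the pattern TGANTCA was matched with any base at N. Matches with A or T there, such as TGATTCA at Erbb4, were counted with those with C or G. The pattern was in 5 of 19 increased (26.3%, beside 24.3%) and 5 of 35 decreased regions (14.3%, beside 17.9%). The ERR element TCAAGGTCA and the PPAR direct repeat, sites for nuclear receptors, were in none of the 54, beside 1.22 and 0.0716% of all regions. Shares of the 38 genes thus stood near those of the whole lists, apart from the E-box in increased regions, which rests on 19 regions and rose to 3 of 19 (15.8%, beside 44.1%) over whole regions.

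Short stretches from 6 loci show these motifs in place, each read along its gene with 30 bases on either side of the match in capitals. They were chosen after the matches had been seen. The N-box of Lrp4 falls inside the coding exon, that of Dok7 in the widest decreased region, and the E-box shown for Etv5 in the outermost region of the upstream group, which has 3 such matches in 501 bp. The decreased Utrn region has an E-box that overlaps an AP-1 match by 2 bases, and the increased regions upstream of Utrn have 1, 3 and 3 AP-1 matches, of which 2 are shown. The increased Unc13c region has 2 AP-1 matches, of which 1 is shown, and the increased Ntrk2 region has the only central E-box among increased regions.
Lrp4, decreased, N-box: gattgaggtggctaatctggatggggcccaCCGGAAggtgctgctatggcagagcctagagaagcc
Dok7, decreased, N-box: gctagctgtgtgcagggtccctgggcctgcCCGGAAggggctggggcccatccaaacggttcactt
Etv5, decreased, E-box: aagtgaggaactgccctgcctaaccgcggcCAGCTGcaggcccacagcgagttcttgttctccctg
Utrn, decreased, E-box: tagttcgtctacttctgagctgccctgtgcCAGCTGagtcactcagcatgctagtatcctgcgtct
Utrn, increased, AP-1, closest upstream region: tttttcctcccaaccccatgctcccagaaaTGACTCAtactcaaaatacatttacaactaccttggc
Utrn, increased, AP-1, next upstream region: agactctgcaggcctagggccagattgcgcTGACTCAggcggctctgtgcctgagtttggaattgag
Unc13c, increased, AP-1: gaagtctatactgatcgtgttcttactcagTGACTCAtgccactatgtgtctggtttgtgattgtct
Ntrk2, increased, E-box: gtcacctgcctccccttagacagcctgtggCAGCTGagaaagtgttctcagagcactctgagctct

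Other genes of the synapse were counted the same way. Of 64 such genes outside the 38, 34 had a nearest region, beside 25.4% of protein-coding genes. An increased one was nearest to 18 (beside 10.6% of protein-coding genes) and a decreased one to 25 (beside 17.8%). These counts were not set against the stretch of chromosome closest to the genes' starts. Their regions were 36 increased and 65 decreased (35.6% increased). The Wnt and Frizzled group held Wnt genes, whose products can cluster receptors through MuSK, and genes of Wnt signalling inside the cell. It had 1 increased and 18 decreased regions at 6 of its 10 genes, and 1 and 8 without chromosomes 4, 7, 10 and 16. Among its Wnt and Frizzled genes only Wnt4 had nearest regions (3, all decreased), and the others lay at genes of signalling inside the cell. Wnt16, counted below with the genes the study had named, had 1 increased nearest region. Within 100 kb it had 3 increased and 0 decreased. Ctnnb1, which encodes β-catenin, had 6 decreased, Gsk3b, a kinase that acts on β-catenin, had 5, and Dvl1, a dishevelled protein, had 1 at 471 bp from a start. Apc had an increased region 258 bp from a start. Genes acting downstream of MuSK, such as kinases and regulators of the actin skeleton, had 7 increased and 2 decreased regions, and 2 and 1 without these chromosomes. No difference between such groups was tested. Beside utrophin, Dmd, which encodes dystrophin, had 4 increased regions with 1 of them 975 bp from a start. Sntb1 and Dtnb, a syntrophin and β-dystrobrevin, each had 1 increased and 3 decreased, and Ank3, ankyrin-G, had 2 and 4.

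The basal lamina genes were split by gene. Lama2, the laminin α2 chain, had 7 increased regions, 1 of them 915 bp from a start, and Col13a1, a membrane collagen of the synapse, had 5 decreased, 1 of them at 374 bp. Both are on chromosome 10. Col4a1 and Lamc1 each had a decreased region within 1 kb, at 896 and 712 bp. Of the neurotrophic genes, Gfra1, a GDNF receptor, Lif, a cytokine that supports motor neurons, Sema3a and Efna5 had increased regions at 215, 119, 108 and 876 bp from a start. Lif had 4 further regions, all decreased, Sema3a 4 increased and 3 decreased in all, and Efna5 3 and 1. Hdac4, a deacetylase that acts in denervated muscle, had 4 decreased regions.

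The study had named 7 genes for the NMJ from these data, so their counts are no independent evidence. Of these, 4 had an increased nearest region (beside 10.6% of protein-coding genes) and 1 a decreased one (beside 17.8%). The 7 genes had 6 increased and 3 decreased regions in all (2 and 3 without chromosomes 4, 7, 10 and 16). None of these regions lay within 1 kb of a start. Since the lists hold no level for any gene, the labelled cell type could not be checked by expression of its markers. Of 8 markers each, 3 myotube genes had nearest regions (2 increased and 4 decreased regions), as did 3 Schwann cell genes (0 and 3) and 6 fibroblast genes (6 and 2). Over all protein-coding genes, 25.4% had a nearest region. The part of other cell types in the regions described here was not tested.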

How the data were processed

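Positions and directions were analysed for H3K27ac CUT&RUN in primary myotubes (2 libraries per group, 4 groups including IgG). Per the methods and labels, the authors aligned paired reads to mm10 with BWA-MEM2 (BWA 2.2.1), called broad peaks with HOMER 4.11 and kept regions that differed 2-fold or more in peak intensity. How replicates and IgG libraries entered these calls is not given in the sources used here. The deposited intervals carry a constant score, which was not used, and depth is unknown. Whether differences in depth, yield or DNA copy number entered the lists cannot be seen without values per library. The labels and the methods name different H3K27ac antibodies, which could not be settled.

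The 38 genes and all other lists were chosen with earlier results of these data known. Each region was tied by its centre to GENCODE M21 starts of protein-coding genes on GRCm38, and 1 region off the chromosomes was left out. Promoter-proximal means a centre within 1 kb of a start. All members are named. Positions are printed for members with a promoter-proximal region, with 3 or more nearest regions, inside Musk, Bdnf and Unc13c, and for regions that 2 members share, except on chromosome 18, where distances stand for them. Other synapse genes are named with a region within 1 kb of a start or 4 or more nearest regions, and Wnt4 and Wnt16 are named beyond this rule. Sequences were read from the GRCm38 genome and RefSeq promoters, and 5 motifs were matched as exact letters. Intervals on shares are exact binomial (95%) and cover counting error only. Python 3.11.15, numpy 2.4.6, scipy 1.17.1 and pysam 0.24.0 were used, and the assignment of regions was tested on simulated positions. Alternatives covered the genes that compete, the start, the point of the region, distance, gene bodies, joining, width and chromosomes.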

Additional observations from a re-analysis of the deposited data

How the results depend on the processing

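Of 68 alternative values of the 9 main counts and shares, 19 moved by more than 1.5 times, and decreased regions outnumbered increased ones in all 8 settings of the nearest rule and all 7 of the window rule. With all annotated genes competing, nearest regions were 9 increased and 22 decreased, and 5 genes had an increased one. When only starts within 100 kb counted as nearest, 11 increased regions were left. Regions at least 1 kb wide numbered 4 increased and 13 decreased at 3 and 8 genes by the nearest rule, and 4 and 17 at 2 and 10 genes by the window. Without chromosomes 4, 7, 10 and 16, 23 decreased nearest regions were left, and the window held 11 increased and 29 decreased. A window of 50 kb held 11 increased regions, and one of 250 kb held 34 increased and 103 decreased, with increased ones at 20 genes. With all annotated genes competing, Erbb4, Epha4, Nrg1, Unc13c and Sntb2 had no nearest region, and Etv5 had 2 of its 8. In the separate setting where the gene body came first, Etv5 had 1. The shares without Etv5, Ntf3 and Utrn, and the counts of other synapse genes without the 4 chromosomes, were added after seeing the data, and with these 3 genes left out 40.6% of 32 nearest regions were increased (exact 95% binomial interval 23.7 to 59.4). No paired analysis was possible because the lists hold no value per library, and leaving out a replicate could not be computed for the same reason. Depth is unknown, so a gene without a region may have one that missed the threshold of the authors.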
